A study of Mus musculus with 20 samples.

Results

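The transcription factors described here are those that set up the notochord and the disc and tendon lineages: T (brachyury), Noto, Foxa1 and Foxa2 of the notochord, Sox5, Sox6 and Sox9 of cartilage, and Scx and Mkx of tendon. They were chosen by gene symbol, and their levels were read from the probe sets annotated to those symbols. Of the 9 factors, 8 had a named probe set, 1 each, among 19505 named genes, and T had none and is not analysed here. Gene expression had been measured on Mouse Clariom S arrays in nucleus pulposus (NP) and annulus fibrosus (AF) tissue dissected from the discs of 5 ank mice, which are homozygous for a loss of function allele of the pyrophosphate and ATP transporter gene Ank (ank/ank), and 5 WT littermates. All 10 mice were 13 weeks old, and each genotype had 2 males and 3 females. Each mouse gave 1 NP and 1 AF array, 20 in all, and each array held pooled disc tissue of 1 animal, so the groups were NP WT, NP ank, AF WT and AF ank with 5 mice each (WT mice 32, 33, 53, 55 and 59, ank mice 31, 34, 39, 41 and 48). The labels name caudal and lumbar discs and the study's text names caudal discs only. The ank allele is present in every tissue of the mutants, and the probe set of Ank itself is not named in the table and was not analysed here.

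The NP develops from the notochord, a rod of cells along the embryonic midline, and T, Noto and the forkhead factors Foxa1 and Foxa2 direct the formation and maintenance of notochord cells in the mouse. SOX9 is the master factor of the chondrocyte lineage, and SOX5 and SOX6, which lack a transactivation domain, join it on enhancers of cartilage matrix genes such as Acan and Col2a1 and are required for the notochord sheath and the NP. Scleraxis (Scx) and Mohawk (Mkx) drive tendon and AF cells towards fibrillar collagen and tenomodulin expression.

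Promoter windows of Sox5 and Sox6 are shown because these genes belong, with Sox9, to the members measured well above background, and Sox6 was the tested factor called between the tissues of WT mice. Promoter entries matched 6 of the 9 factors (T, Noto, Foxa1, Foxa2, Sox5 and Sox6) with 13 windows in all. Each line gives the 250 bases before a RefSeq transcription start in build GRCm38.p6, on the gene's own minus strand, with matches to the SOX letters ACAAAG or ACAATG on either strand (CTTTGT or CATTGT when reversed) in capitals. The Sox5 window, its only entry, lies at chr6:143947107-143947356. The Sox6 windows, those of its most upstream start among the entries and of the third start counted from it, lie at chr7:116038745-116038994 and chr7:115995087-115995336. Each window lies inside the span of its gene, since Sox5 reaches upstream to 144782287 and Sox6 to 116040776, so these are internal starts.
Sox5: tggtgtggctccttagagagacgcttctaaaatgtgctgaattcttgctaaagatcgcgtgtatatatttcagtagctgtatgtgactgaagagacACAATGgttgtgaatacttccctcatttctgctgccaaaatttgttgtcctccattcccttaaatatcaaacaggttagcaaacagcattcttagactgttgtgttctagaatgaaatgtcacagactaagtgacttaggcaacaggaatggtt
Sox6, most upstream start: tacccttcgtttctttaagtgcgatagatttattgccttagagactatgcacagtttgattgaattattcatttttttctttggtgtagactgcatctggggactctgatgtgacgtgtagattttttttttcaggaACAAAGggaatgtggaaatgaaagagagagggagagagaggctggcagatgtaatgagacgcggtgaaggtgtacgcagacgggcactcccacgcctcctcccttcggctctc
Sox6, the third start: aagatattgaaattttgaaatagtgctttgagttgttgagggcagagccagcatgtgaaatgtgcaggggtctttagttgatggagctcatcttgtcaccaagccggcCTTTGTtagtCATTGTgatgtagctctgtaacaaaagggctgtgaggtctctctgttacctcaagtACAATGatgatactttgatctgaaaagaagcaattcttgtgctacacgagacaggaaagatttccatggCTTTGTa

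The Sox5 window held 1 match, the most upstream Sox6 window 1 and the third Sox6 window 4, and over the 6 Sox6 windows the counts ran from 0 to 4. Of 32851 mouse windows of the same length, 25.2% held at least 1 match. The FOX letters GTAAACA, searched on both strands, occurred in 1 member window, that of Foxa1, and in 3.17% of all windows. These matches describe the letters in the windows and show no binding.

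The arrays differed in quality, which bears on which factors could be measured. The control AUC, which gives how often positive control probe sets read above negative ones, ran from 0.710 to 0.789 in the NP and from 0.591 to 0.763 in the AF, and 4003 to 7429 genes in the NP and 1781 to 6362 in the AF lay above background, the 95th percentile of 1425 olfactory and related receptor genes on that array. Of the AF arrays, that of WT mouse 33 had the highest control AUC and a mean of 13.54 over 12 skeletal muscle markers (5.65 to 7.55 in the other AF arrays), 14.68 over 7 osteoblast markers (6.64 to 9.58), 13.97 over 4 hypertrophic chondrocyte markers (5.46 to 7.98) and 8.62 over 6 endothelial markers (4.76 to 5.67). That of ank mouse 31 had the lowest control AUC. The NP label fitted the mean of its 6 marker genes, which was 14.54 to 15.22 in the NP and 8.56 to 13.97 in the AF. Not each marker separated the tissues. On values quantile-normalized over all 20 arrays Car3 read alike in both (AF minus NP -0.02 in WT and -0.03 in ank mice). Krt18 was lower in the AF (-1.54 and -1.09), with a limma adjusted p of 0.125 in WT and 0.277 in ank mice. The AF label fitted its markers less sharply, at 9.85 to 15.80 in the AF and 8.31 to 10.67 in the NP. The NP array of WT mouse 55 held that highest NP value, with 8.31 to 9.57 in the other NP arrays. It also had a mean of 8.25 over the osteoblast markers (5.36 to 6.73 in the other NP arrays). Over the hypertrophic chondrocyte markers it had 7.66 (5.06 to 5.95). The spike-in controls divided the arrays into 2 sets, A and B, and both sets held both genotypes in each tissue. In bulk tissue, fewer cells of a type and less RNA per cell cannot be told apart.

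Only the 3 SOX factors were above background in most arrays. Sox9 exceeded it in 20 of 20 arrays, Sox5 in 19 and Sox6 in 18. Noto exceeded it in 3 arrays (NP of WT mice 55 and 59 and of ank mouse 41), and Foxa1, Foxa2, Scx and Mkx in 0. The SOX factors were therefore the members tested, since a gene entered a test when it was above background in at least 5 arrays of the comparison. For the other 5 factors levels are given. A fit without this filter took in all 8 factors. Of these 5, its values are given for Mkx alone, which was called in it in WT mice.

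**Figure D1:**
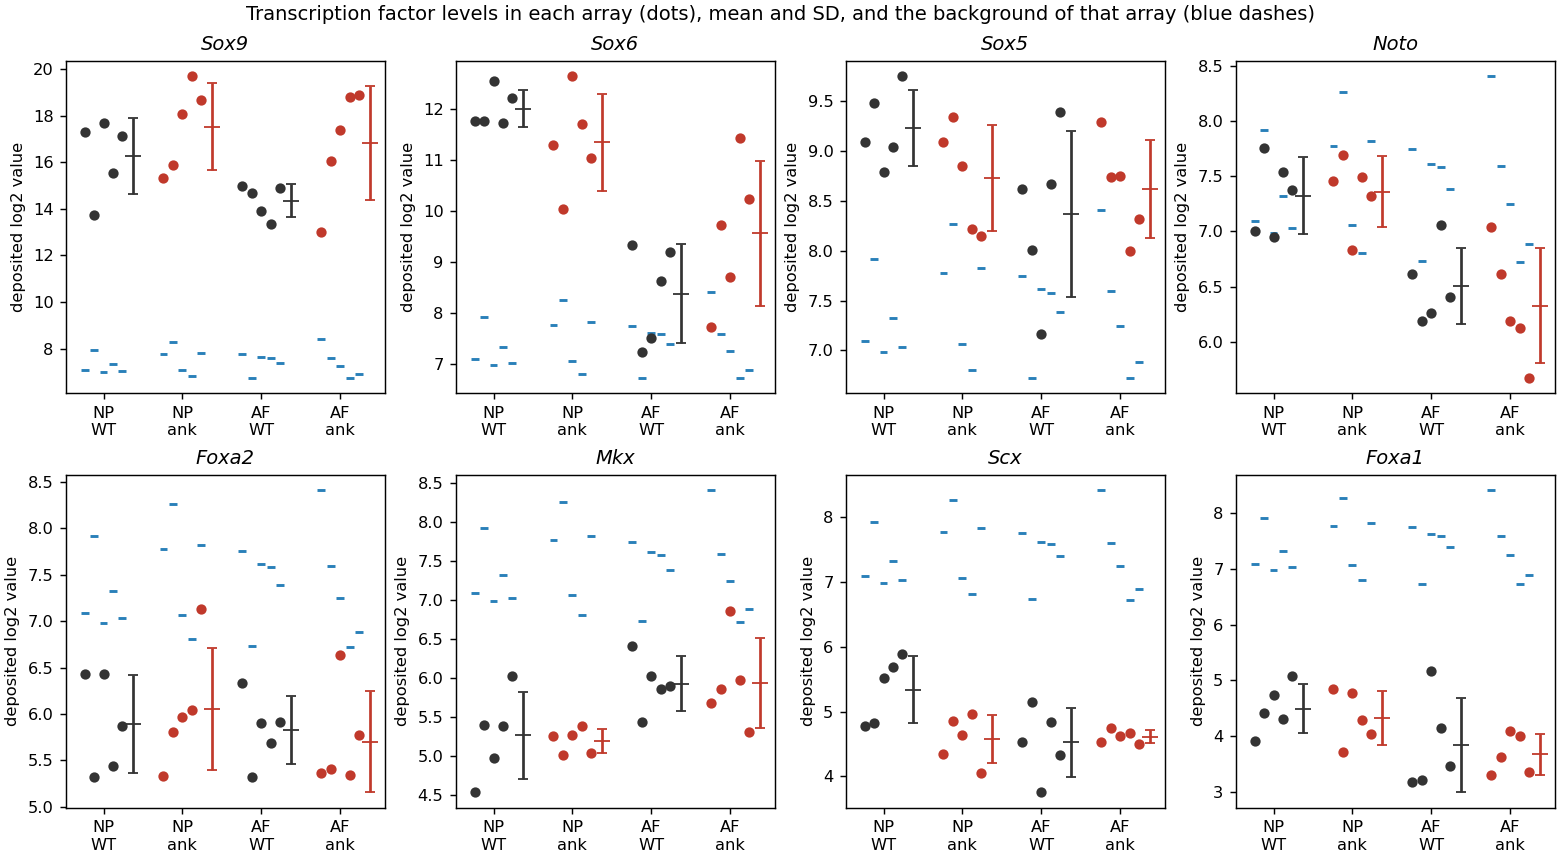
Deposited log2 values of the 8 factors in NP and AF of WT (black) and ank (red) mice, 1 dot per array, with the group mean and SD beside them and the background of each array as a blue dash. Sox9 lies far above background in all 20 arrays, Sox6 is high in the NP and lower in the AF of WT mice, and Foxa2, Mkx, Scx and Foxa1 lie below background in each array.

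Sox9, on chromosome 11 (112782210 to 112787757, GRCm38.p6), was the factor with the widest range between mice. In the NP it read 17.28, 13.74, 17.68, 15.52 and 17.11 in WT mice 32, 33, 53, 55 and 59, and 15.32, 15.89, 18.08, 19.69 and 18.65 in ank mice 31, 34, 39, 41 and 48. The NP groups overlap, with the 3 highest values in ank mice and the lowest in a WT mouse. In the AF it read 14.98, 14.66, 13.89, 13.34 and 14.88 in the WT mice and 12.99, 16.05, 17.37, 18.80 and 18.89 in the ank mice, in the same orders. Of the 5 ank AF arrays, 4 lay above every WT array, and that of ank 31 lay below every WT array. At least 4 of 5 ank arrays lay above all WT arrays in 5.05% of the 4077 genes tested in the AF.

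The group means of Sox9 in the AF were 14.35 ± 0.71 in WT and 16.82 ± 2.44 in ank mice (SD, n = 5 each). The difference, ank minus WT, was 2.47 on the log2 scale (SE 0.97, 95% confidence interval 0.35 to 4.59), a 5.54-fold higher signal, with an unadjusted limma p of 0.0258 and an adjusted p of 0.946. Sox9 thus passed the thresholds set in the study, which ask for 1.75-fold or more at p under 0.05 without adjustment, but not the adjusted threshold of 0.05. It was 1 of the 3 members tested, beside 3.70% of all genes tested in the AF, of which 145 (3.56%) were higher and 6 (0.147%) lower in ank. At an adjusted p of 0.05 no gene was called in the AF (154 had an unadjusted p under 0.05). Over all genes tested the differences had a median of 0.28.

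The AF difference of Sox9 depended on the arrays used. Within spike-in set A (2 WT and 2 ank mice) it was -0.30, and within set B (3 and 3) 4.32, with an unadjusted p of 4.5e-05 and an adjusted p of 0.0621. Without the AF arrays of WT 33 and ank 31 it was 3.50 (adjusted p 0.0975). Leaving out WT 53, WT 55, ank 39, ank 41 or ank 48 took Sox9 off the study's thresholds, with differences from 1.95 to 2.35 across these 5 mice. With the control AUC as a covariate the difference was 1.89 (unadjusted p 0.0197). The control AUC of the AF arrays was 0.663, 0.763, 0.607, 0.634 and 0.647 in WT mice 32, 33, 53, 55 and 59 and 0.591, 0.689, 0.690, 0.749 and 0.724 in ank mice 31, 34, 39, 41 and 48. Among the ank arrays Sox9 was highest in the 2 with the highest AUC and lowest in that with the lowest. The array of WT 33, with the highest AUC of the AF, read 14.66 and ranked 7 of the 10 AF arrays by Sox9. The part of array quality beyond the AUC covariate was not tested.

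In the NP, Sox9 had means of 16.27 ± 1.64 in WT and 17.52 ± 1.86 in ank mice (SD, n = 5 each). The difference of 1.26 (95% confidence interval -0.61 to 3.13, adjusted p 0.973) did not pass the test. With 1 mouse left out it ran from 0.63 (without WT 33) to 1.81 (without ank 31), and it was 0.72 without ank 41. Within spike-in set A it was 0.20 and within set B 2.85, and with the control AUC as a covariate it was 1.57 (unadjusted p 0.0364). No member met the study's thresholds in the NP, where 3.31% of 6341 genes tested did (32 higher, 178 lower) and 0 had an adjusted p under 0.05 (269 had an unadjusted p under 0.05). Over all genes 0.505% were higher and 2.81% lower by these thresholds.

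Between the tissues no difference of Sox9 passed the test on values quantile-normalized over all 20 arrays, the scale used for tissue comparisons because the authors had probably normalized the tissues in separate runs. AF minus NP was 0.07 in WT (95% confidence interval -1.23 to 1.37, adjusted p 0.946) and -0.03 in ank mice (-2.08 to 2.01, adjusted p 0.987). On the deposited values the WT difference was -1.92 with an adjusted p of 0.0214, so its call rested on the scale. The deposited scale itself moved the median of all genes tested in WT from -0.27 to -1.50.

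Sox9 went with the mouse. On the quantile-normalized values the NP arrays of WT mice 32, 33, 53, 55 and 59 read 16.18, 13.10, 16.47, 14.97 and 16.25, and their AF arrays 15.87, 14.67, 16.15, 14.67 and 15.94. The ank mice 31, 34, 39, 41 and 48 read 14.95, 15.61, 17.02, 19.83 and 18.48 in the NP and 15.01, 16.10, 17.60, 18.48 and 18.53 in the AF. Mice that read high in 1 tissue read high in the other. Over the 10 mice Pearson's r between the tissues was 0.929 (permutation p 5e-05, adjusted 0.0003) and Spearman's rho 0.930 (permutation p 0.00027, adjusted 0.00162), two-sided, from 100000 permutations and adjusted over the 6 relations computed (3 factors on 2 scales). Without mice 33 and 41, the farthest from the NP median, r was 0.958, and for deviations from the genotype means it was 0.911. The permutations exchanged mice across genotypes, so their p also take in the difference between the genotype means. For the r of the deviations no p was computed. On the deposited values r was 0.726 (permutation p 0.0184, adjusted 0.0552) and rho 0.770 (permutation p 0.0122, adjusted 0.0366). Of 6960 genes above background in at least 5 arrays, 14 (0.201%) had an r as high as that of Sox9 on the quantile-normalized values and 170 (2.44%) on the deposited ones, beside a median r of 0.09 and 0.06. The relation was examined after the values had been seen, which the adjustment over 6 relations does not cover. Arrays of 1 mouse share the animal and, in 8 of 10 mice, the spike-in set. Each set held too few mice for a value of its own, and the part of the set in the relation was not tested.

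**Figure D2:**
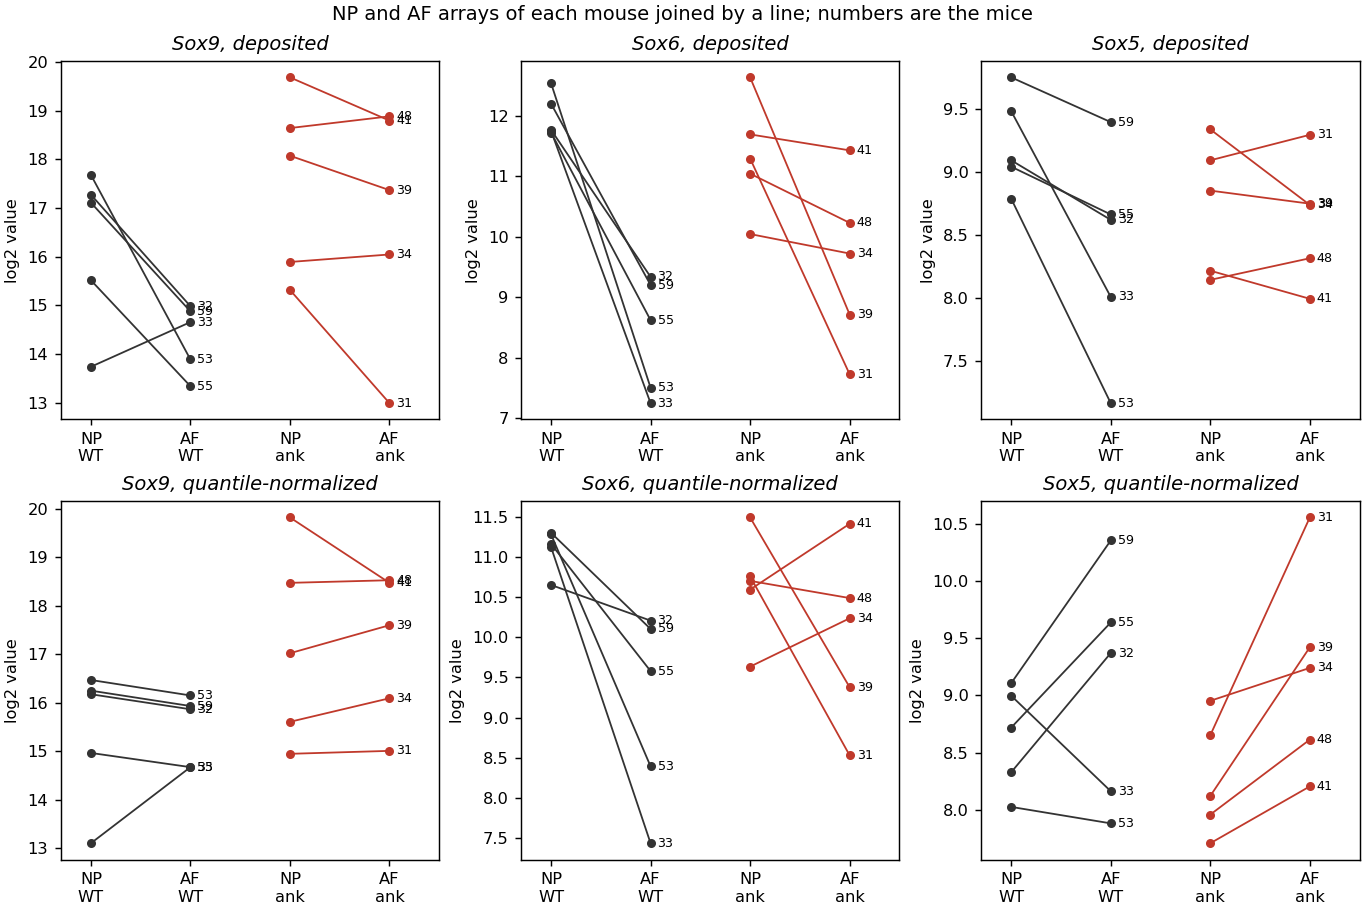
NP and AF values of Sox9, Sox6 and Sox5 in each mouse, joined by a line, as deposited (top) and quantile-normalized over 20 arrays (bottom), in log2 units, with WT mice in black and ank mice in red. On the quantile-normalized values the Sox9 lines keep nearly the same order of mice in both tissues, while Sox6 falls from NP to AF in 5 of 5 WT mice and 3 of 5 ank mice.

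Sox6, on chromosome 7 (115470872 to 116040776), was, of the 3 members tested, the one called between the tissues of WT mice. In the NP it read 11.76, 11.75, 12.54, 11.72 and 12.20 in WT mice 32, 33, 53, 55 and 59, and in their AF 9.33, 7.25, 7.50, 8.62 and 9.20 (deposited log2 values). The WT tissues do not overlap, and the AF array of mouse 53 lay below its background of 7.62. In the ank NP it read 11.29, 10.04, 12.63, 11.69 and 11.04 and in the ank AF 7.72, 9.72, 8.71, 11.43 and 10.23, in mice 31, 34, 39, 41 and 48. These ank tissues overlap, and the AF array of mouse 31 lay below its background of 8.41.

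On the quantile-normalized values Sox6 was lower in the AF than in the NP of WT mice by 1.96 on the log2 scale, or 3.89-fold (9.14 ± 1.20 in AF and 11.10 ± 0.26 in NP, SD, n = 5, 95% confidence interval of AF minus NP -3.03 to -0.89). Its limma adjusted p was 0.0127 over 5451 genes tested, and the AF was lower in 5 of 5 mice. It was the 1 member called of 3 tested, where 26.5% of all genes were called (476 higher and 967 lower in AF), and the groups of 17.1% of all genes did not overlap. By the study's thresholds it was again 1 of 3, beside 39.2% of all genes. On the deposited values the difference was -3.61, and without WT 33, whose AF array carried the muscle and bone markers, it was -1.53 (adjusted p 0.0277). Without WT 53 it was -1.73 with an adjusted p of 0.0669. In ank mice AF minus NP was -0.63 (SE 0.52, adjusted p 0.484), and the AF was lower in 3 of 5 mice. No member was called in ank mice, beside 4.04% of all genes at an adjusted p under 0.05 (2.08% higher and 1.96% lower in the AF) and 20.9% at the study's thresholds, and the groups of 8.44% of all genes did not overlap. On the deposited values that difference was -1.78 with an adjusted p of 0.0443 and the AF was lower in 5 of 5 mice, and with the control AUC as a covariate it was 0.20.

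The mean differences of Sox6 between ank and WT mice had opposite signs in the tissues. In the AF it was 1.18 (8.38 ± 0.96 in WT and 9.56 ± 1.42 in ank mice, SD, n = 5 each, 95% confidence interval -0.31 to 2.68, adjusted p 0.946), and in the NP it was -0.65 (11.99 ± 0.36 in WT and 11.34 ± 0.94 in ank mice, -1.55 to 0.24, adjusted p 0.973). Neither passed the test. With 1 mouse left out the AF difference ran from 0.72 (without ank 41) to 1.64 (without ank 31) and the NP difference from -0.98 (without ank 39) to -0.33 (without ank 34). Without the AF arrays of WT 33 and ank 31 the AF difference was 1.36 (unadjusted p 0.0477, adjusted p 0.189). By spike-in set it was 0.43 in A and 1.68 in B (unadjusted p 0.0477, adjusted p 0.205). In the NP the groups overlapped, at 11.72 to 12.54 in WT and 10.04 to 12.63 in ank mice. The test of the difference between both effects, on the quantile-normalized values, gave 1.33 (95% confidence interval -0.21 to 2.88, unadjusted p 0.0875, adjusted p 0.997), and no gene of 6960 tested was called there (266, or 3.82%, had an unadjusted p under 0.05). The AF comparison and the WT tissue comparison share the 5 WT AF arrays, so the values of Sox6 in them are the same measurements.

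At both ends of their range the NP marker genes in the AF arrays moved with Sox6, and less closely between them. The mean of the 6 markers was 11.05, 8.56, 12.18, 12.27 and 12.97 in AF of WT mice 32, 33, 53, 55 and 59 and 10.57, 13.15, 11.70, 13.76 and 13.97 in AF of ank mice 31, 34, 39, 41 and 48. The 3 AF arrays with the highest marker level, of ank mice 48, 41 and 34, held the 3 highest Sox6 values, and the array with the lowest, of WT 33, held the lowest. Between these, WT 32 was the eighth by marker level and the fourth by Sox6, and WT 53 the sixth by marker level and the ninth by Sox6. For Sox9 the 2 arrays with the highest marker level held the 2 highest values, but ank 39, the seventh by marker level, held the third. In the AF, 5 of the 6 markers were above background in at least 3 of 5 arrays of both genotypes, and Shh was above it in 0. The part of NP cells or RNA in the AF values of Sox6 and Sox9 was not tested.

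**Figure D3:**
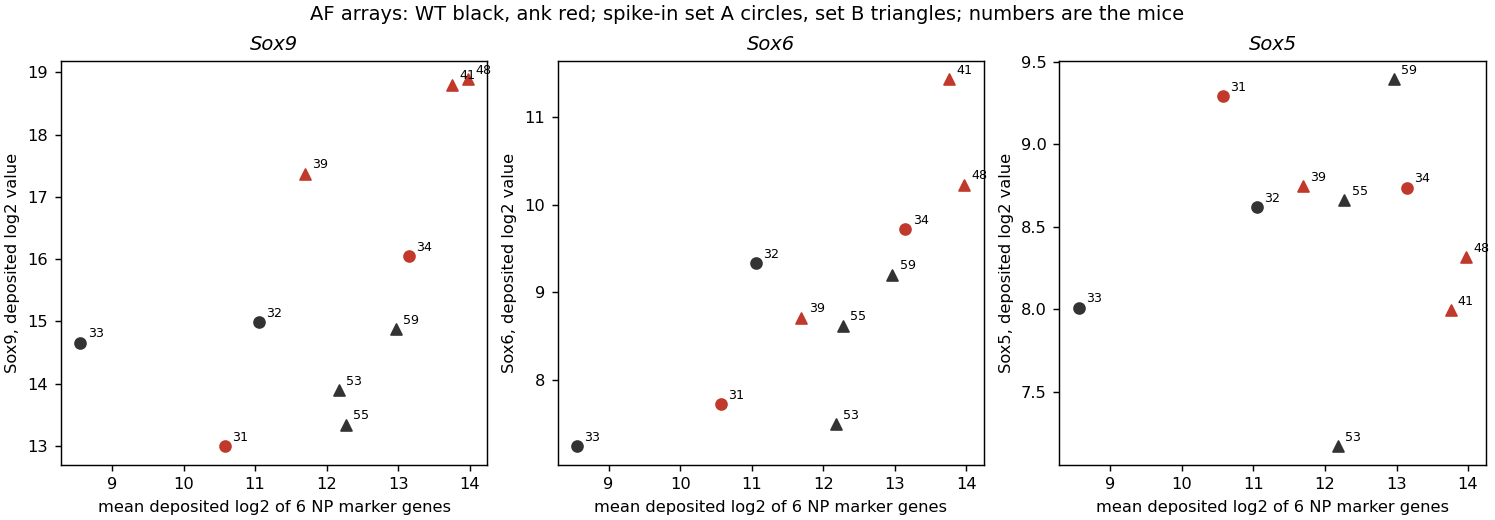
Deposited log2 values of Sox9, Sox6 and Sox5 in the 10 AF arrays against the mean of 6 NP marker genes in the same array (log2), with WT black, ank red, spike-in set A as circles and set B as triangles. Sox6 is highest where the NP markers are highest (ank 41, 48 and 34), while the Sox5 values show no such order.

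Sox5, on chromosome 6 (143828425 to 144782287), was called in none of the comparisons. In the NP it read 9.09, 9.48, 8.79, 9.04 and 9.75 in WT and 9.09, 9.34, 8.85, 8.22 and 8.15 in ank mice, in the same order of mice as above. In the AF it read 8.62, 8.01, 7.17, 8.66 and 9.39 in WT and 9.29, 8.74, 8.75, 7.996 and 8.32 in ank mice. The groups overlap in each tissue, and the AF array of WT 53 lay below its background. The ank minus WT difference was -0.50 in the NP (95% confidence interval -1.20 to 0.20, adjusted p 0.973) and 0.25 in the AF (-0.73 to 1.23, adjusted p 0.946). AF minus NP was 0.45 in WT (-0.57 to 1.46, adjusted p 0.504) and 0.93 in ank mice (-0.03 to 1.88, adjusted p 0.232, higher in AF in 5 of 5 ank mice), and on the deposited values these were -0.86 and -0.11. Its direction between the tissues thus flipped with the scale. The test of the difference between the ank effects in both tissues gave 0.48 for Sox5 (95% confidence interval -0.89 to 1.85) and -0.10 for Sox9 (-2.57 to 2.37), and neither was called.

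**Figure D4:**
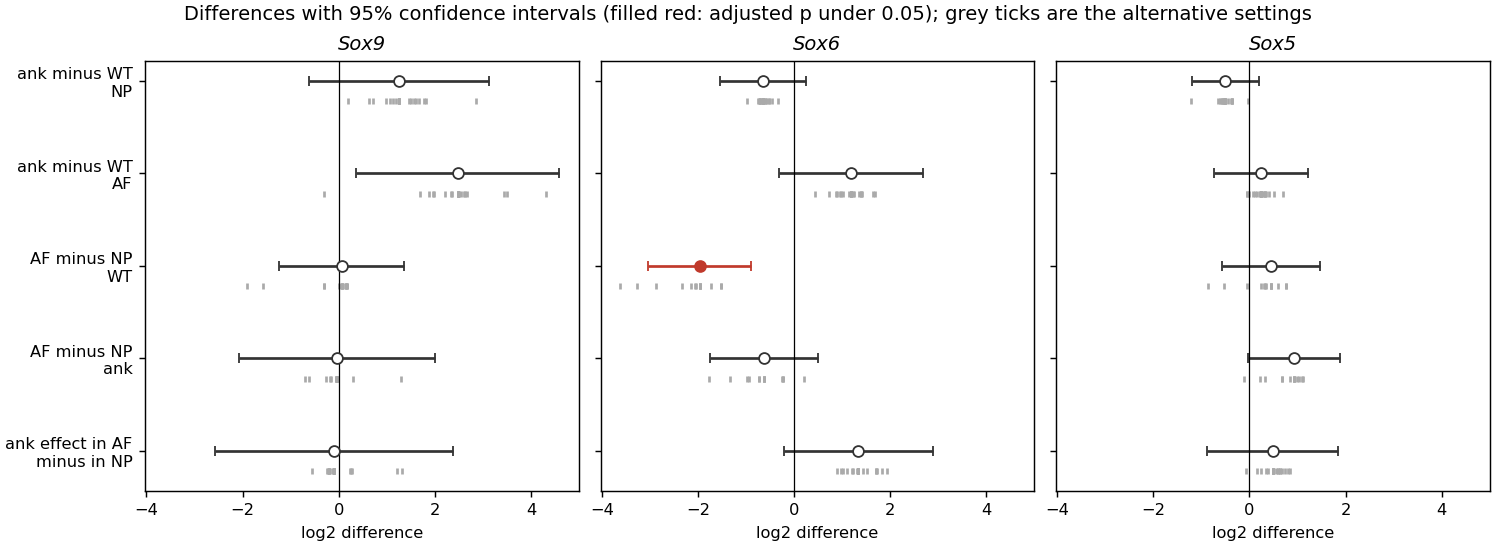
Differences of Sox9, Sox6 and Sox5 with 95% confidence intervals (log2) in the 5 comparisons, 5 arrays a group, with the values under all alternative settings as grey ticks. The filled red point, Sox6 in AF minus NP of WT mice, is the difference with an adjusted p under 0.05, and the ticks of Sox9 and Sox5 in the tissue comparisons lie on both sides of 0.

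The order of the 4 group means depended on the scale for Sox9 and Sox5. On the quantile-normalized values Sox9 had means of 17.18 ± 2.01 in NP ank, 17.14 ± 1.55 in AF ank, 15.46 ± 0.73 in AF WT and 15.40 ± 1.41 in NP WT (SD, n = 5 each). Neighbours of the same genotype in this order differed by less than either SD. The places of NP WT and AF WT were exchanged on the deposited values. For Sox6 the order was NP WT, NP ank, AF ank and AF WT on both scales, and on the quantile-normalized values (11.10 ± 0.26, 10.64 ± 0.66, 10.01 ± 1.10 and 9.14 ± 1.20) each step was smaller than the larger SD of the neighbours. For Sox5 it was AF ank, AF WT, NP WT and NP ank on the quantile-normalized values (9.21 ± 0.90, 9.08 ± 1.04, 8.64 ± 0.45 and 8.28 ± 0.51), with each step smaller than either SD of the neighbours, and NP WT, NP ank, AF ank and AF WT on the deposited ones. The levels of different probe sets are not compared with each other.

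Among the notochord factors, Noto, on chromosome 6 (85423886 to 85428877), read 7.003, 7.76, 6.95, 7.54 and 7.38 in the NP of the WT mice and 7.46, 7.70, 6.83, 7.50 and 7.32 in that of the ank mice. In the AF it read 6.19 to 7.05 in WT and 5.67 to 7.04 in ank mice. The NP values lay around background (6.81 to 8.26 in these arrays) and the AF values below it. On the deposited values each of the 10 mice read lower in the AF than in the NP, and on the quantile-normalized values 7 of 10 did, so no direction is given. Foxa2, on chromosome 2 (148042877 to 148046969), read 5.32 to 6.43 in NP WT, 5.33 to 7.13 in NP ank, 5.32 to 6.33 in AF WT and 5.35 to 6.63 in AF ank. Foxa1, on chromosome 12 (57540628 to 57548029), read 3.71 to 5.09 in the NP and 3.17 to 5.17 in the AF. Foxa2 and Noto lay above the mean of the antigenomic control probe sets, a lower background, in 20 of 20 arrays, and Foxa1 in 1. Of the tendon factors, Mkx lay above that mean in 4 NP WT, 4 NP ank, 5 AF WT and 5 AF ank arrays, and Scx in 3, 0, 1 and 1.

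Of the tendon factors, Scx, on chromosome 15 (76457411 to 76459468), read 4.77, 4.82, 5.52, 5.69 and 5.89 in NP WT and 4.35, 4.86, 4.64, 4.96 and 4.06 in NP ank. In the AF it read 3.75 to 5.15 in WT and 4.49 to 4.74 in ank mice. These values lay more than 1 log2 unit under the background of each array. Mkx, on chromosome 18, read 4.53 to 6.02 in NP WT, 5.02 to 5.38 in NP ank, 5.43 to 6.41 in AF WT and 5.31 to 6.86 in AF ank. On the quantile-normalized values Mkx was higher in the AF in 5 of 5 WT and 5 of 5 ank mice. In a fit without the filter AF minus NP was 0.96 in WT (adjusted p 0.0456) and 1.15 in ank mice (adjusted p 0.0524), but the values lay below background in both tissues and are given no fold. In that fit Mkx was 1 of 2 members called of 8 in WT mice, beside 1171 genes higher and 1637 lower of 19505. In ank mice 0 of 8 were called, beside 566 genes higher and 588 lower. The ank and WT means of Mkx differed by -0.07 in the NP and 0.01 in the AF.

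The cartilage genes that the SOX factors are known to activate were mostly higher in the AF, where Sox6 was lower in WT mice. Of a list of 17 such genes, 10 were tested in WT mice, and 9 were higher and 1 lower in the AF. With an adjusted p under 0.05, 7 rose and 0 fell, beside the 8.73% and 17.7% of all genes tested that were called higher and lower. The median difference was 2.65, against -0.27 over all genes tested. Cytl1, a secreted cytokine-like protein of cartilage, was higher in the AF by 11.29 (adjusted p 4.3e-09), Comp, a matrix protein, by 9.23 (adjusted p 5.3e-08), Cnmd (chondromodulin) by 7.16 (adjusted p 0.00068), and Hapln1, the link protein of aggrecan, by 2.26 (adjusted p 0.00078). In the NP of WT mice 7 of the 17 were above background in at least 3 of 5 arrays. Comp and Cnmd had quantile-normalized means of 6.20 and 5.92 there. They may thus have entered largely through the AF, and the filter then favoured their direction. Without a filter 16 of 17 were higher in the AF of WT mice and 9 were called, beside 1171 genes called higher of 19505. Hapln1 was not called on the deposited values, where its difference was 0.33 (adjusted p 0.563) and the list had 4 genes called. The mean level of the list was 11.89 in the AF array of WT 33 and 9.39 to 10.28 in the other WT AF arrays, and without that mouse 7 of 8 tested were called, with a median of 3.78. In ank mice 8 of the list were tested, 8 were higher in the AF and 5 were called (1 of 5 without ank 39, 2 of 6 without ank 34, and 3 of 6 without ank 41 or ank 48), led by Cnmd (5.02), Col2a1, the collagen of cartilage (5.05), Comp (7.74) and Cytl1 (8.44). Over all genes tested in ank mice 2.08% were called higher. Comp and Cnmd were not above background in any NP array of ank mice, so they entered through the AF alone and the filter fixed their direction. Without a filter 15 of 17 genes of the list were higher in the AF of ank mice and 9 were called.

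Between the genotypes no gene of that list was called after adjustment. In the AF 3 of 9 tested were higher and 6 lower in ank mice (median -0.38), and Cytl1 met the study's thresholds at -2.81 (means 18.80 ± 0.75 for WT and 15.99 ± 3.07 for ank mice, SD, 5 mice each, unadjusted p 0.0362, adjusted p 0.946). No gene of the list met them in the AF without WT 33, WT 53, WT 55, ank 41 or ank 48. The median was -0.054 without WT 33, -0.020 without the arrays of WT 33 and ank 31, and 0.019 within spike-in set B. The other genes with the smallest p were Cnmd (-2.15), Comp (-1.18) and Col11a1, a fibril collagen (-1.06). In the NP 7 of 7 read lower in ank (median -0.35, all genes -0.11), and Hapln1 met the study's thresholds at -1.34 (unadjusted p 0.0158, adjusted p 0.973). Snorc (-0.65), Col11a1 (-0.42) and Col11a2 (-0.17) did not. Without WT 55, 6 of 7 read lower in the NP, with a median of -0.20 (all genes -0.19). Without ank 48, 7 of 7 did, with a median of -0.39 (all genes -0.04). Within spike-in set A the median was -0.22 (all genes -0.21) and within set B -0.54 (all genes 0.01).

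Genes of the notochord-derived NP were lower in the AF. Of a list of 16, 11 were tested in WT mice and 10 were lower in the AF. With an adjusted p under 0.05, 6 fell, beside 17.7% of all genes tested. The median was -2.90, against -0.27 over all genes tested. Without WT 33 the median was -1.71 with 7 called, with the control AUC as a covariate -6.32 with 8 called, and without WT 32 there were 2 called, without WT 53, WT 55 or WT 59 there were 4, and on the deposited values 10. They were led by Dsc3, a desmosomal cadherin (-4.34, adjusted p 0.0011), Lgals3, a galectin (-4.73, adjusted p 0.0040), Dsp, desmoplakin (-3.82, adjusted p 0.0087), and Krt19, a keratin of NP cells (-5.70, adjusted p 0.0099). In ank mice 10 of 11 were lower and 1 fell, Krt19 (-3.29, adjusted p 0.0449), where 5153 genes were tested, and Cd24a (-2.04), Lgals3 (-3.12) and Dsc3 (-1.62) did not pass. With any 1 ank mouse left out, on centred values and with the control AUC 0 were called, and on the deposited values 7. The median was -1.82 (-0.11 over all genes tested, of which 1.96% were called lower), and -1.05 without ank 31. Between the genotypes 10 of 11 read higher in the ank AF (median 1.47), 8 of 11 read lower in the ank NP (median -0.22) and none was called. Dsc3 met the study's thresholds in both tissues, at 2.11 in the AF (unadjusted p 0.0246) and -1.24 in the NP (unadjusted p 0.0134), while Lgals3 (2.67), Krt19 (3.11) and Dsp (2.42) in the AF, and Krt18 (-0.59), Cd24a (-0.37) and Krt19 (-0.38) in the NP, did not. In the AF 0 of the list met them on the quantile-normalized values and without WT 33 (8 of 11 higher, median 0.55), ank 34, ank 41 or ank 48, and 5 without the arrays of WT 33 and ank 31 (median 1.35). Dsc3 also had the smallest p of the list for the difference between both effects (2.72, unadjusted p 0.0086, adjusted p 0.997).

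Genes downstream of Scx and Mkx were higher in the AF, while both factors lay below background in each array. Of 20 listed genes, 19 were on the array and 11 were tested in WT mice, where 11 were higher in the AF. With an adjusted p under 0.05, 9 rose, beside 8.73% of all genes tested. The median was 6.01, against -0.27 over all genes tested. The genes called were led by Prg4, lubricin (10.07, adjusted p 9.2e-06), the small proteoglycan Bgn (6.22, adjusted p 1.8e-05), Angptl7 (7.92, adjusted p 2.8e-05) and Dcn, decorin (10.62, adjusted p 6.5e-05). Col3a1, also called, was not above background in any NP array of WT mice, so it entered through the AF alone and the filter fixed its direction. In the NP of WT mice 6 of the 19 were above background in at least 3 of 5 arrays. Angptl7 and Thbs4, both called, each had a quantile-normalized mean of 6.45 there, and Prg4 7.11. These genes may thus have entered largely through the AF, and the filter then favoured their direction. In ank mice 8 of 10 rose, beside 2.08% of all genes tested, led by Col1a2, a chain of type I collagen (8.43), Dcn (10.39), Bgn (6.79) and the proteoglycan Lum (3.57). Lum and Angptl7 were not above background in any NP array of ank mice, so the filter fixed their direction there. Tnmd, the tenomodulin of tendon, was not above background in any NP array. Between the genotypes none was called. In the NP Col1a1 (-1.48), Fmod (-0.98) and Ogn (-0.89), of type I collagen, fibromodulin and osteoglycin, met the study's thresholds and read lower in ank, and Bgn (-1.12) did not. The genes that met them were 3 of 7 tested, beside 2.81% of all genes tested in the NP that were lower by these thresholds. Without ank 41 none of the list met these thresholds in the NP, and without WT 32, WT 53, WT 55 or ank 48 there was 1. The NP array of WT 55 was the one with the highest AF and osteoblast marker means in the NP. On the quantile-normalized values 0 met them in the NP. In the AF 0 met them on the deposited values and 3, all lower in ank, on the quantile-normalized ones. The smallest p in the AF on the deposited values belonged to Thbs4 (-0.89), Angptl7 (-2.01), Col3a1 (-1.91) and Col1a1 (-2.12). The median of the list in the AF turned from -0.61 to 0.27 without the arrays of WT 33 and ank 31, and to 0.13 without that of WT 33 alone.

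**Figure D5:**
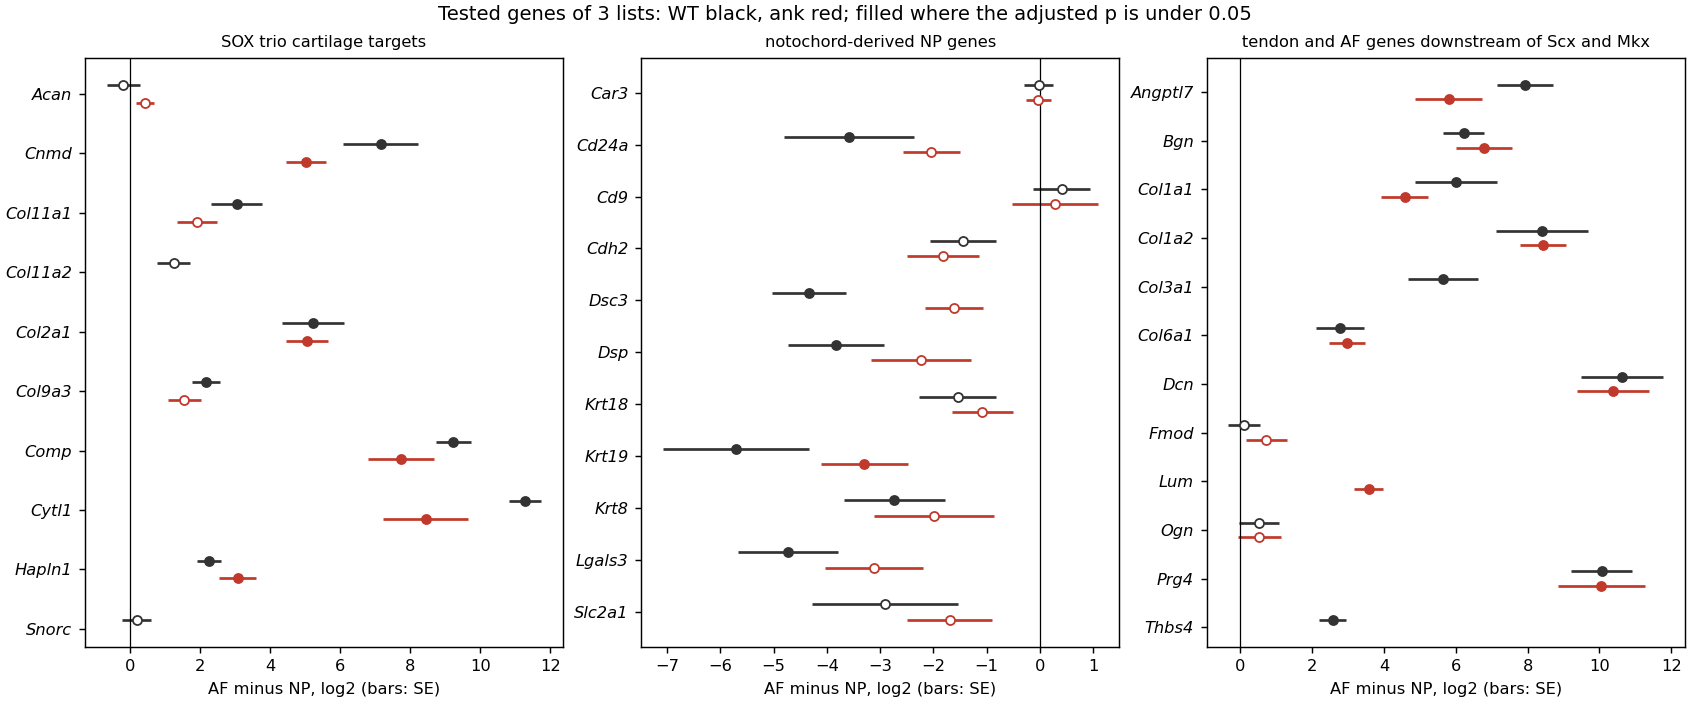
AF minus NP differences (log2, quantile-normalized, bars are SE) of the tested genes of 3 lists in WT (black) and ank (red) mice, filled where the adjusted p was under 0.05. Cartilage genes and tendon genes lie mostly right of 0, up to 11.29 for Cytl1 in WT mice, and NP genes mostly left of it.

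Other SOX, FOX, T-box and homeobox factors were rarely above background. Of 48 listed, 44 were on the array and 5 or 6 were tested within a tissue or genotype. In WT mice Barx2 (-2.33, adjusted p 0.0051) and Irx3 (-1.97, adjusted p 0.0199), both homeobox factors, were lower in the AF and the immediate early factor Egr1 was higher (3.30, adjusted p 0.034), while Prrx1 (-1.52) was not called. Over all genes tested 8.73% were called higher and 17.7% lower. Barx2 was not above background in any AF array of WT mice, so it entered through the NP alone and the filter fixed its direction. Egr1 was not called on the deposited values (1.61, adjusted p 0.220). None of these factors was called without WT 32, WT 33, WT 55 or WT 59, where 2 to 4 were tested. In ank mice Barx2 was lower in the AF (-1.99, adjusted p 0.0415, called in 0 of the fits with 1 ank mouse left out), and Runx1 (2.69), Irx3 (-1.50) and Egr1 (2.503) were not called. Between the genotypes Prrx1, a homeobox factor of mesenchyme, met the study's thresholds in the NP at -1.60 (unadjusted p 0.0070, adjusted p 0.973), and Egr1 (2.56), Runx1 (0.75) and Irx3 (-0.40) did not. In the AF Runx1 (1.79), Egr1 (2.34), Irx3 (0.76) and Pax1 (0.43) did not either. Of the 9 factors tested for the difference between both effects, Sox13 (-0.77), Runx1 (1.32), Prrx1 (0.95) and Irx3 (0.47) had the smallest p, and none was called.

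The genes whose pattern over the 20 arrays was most like that of each SOX factor, by Pearson's r on the quantile-normalized values among 6960 genes, were Arf2 (0.885), Abl2 (0.877) and Itga5 (0.874) for Sox9, Bsg (0.898), Plcl1 (0.890) and Itprid2 (0.876) for Sox6, and Cela2a (0.896), Krtap6-1 (0.873) and Aurkc (0.858) for Sox5. After the tissue means were removed the same genes led for Sox9 and Sox6, from 0.807 to 0.886, and Cela2a (0.877), Krtap6-1 (0.854) and Gm10220 (0.832) led for Sox5. Among the SOX factors themselves r was 0.26 between Sox9 and Sox6, -0.44 between Sox9 and Sox5 and -0.23 between Sox6 and Sox5. These correlations share the arrays, their quality and the animals, and are given as descriptions.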

How the data were processed

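Per the labels, RNA of NP and AF tissue was hybridised to Mouse Clariom S arrays, and the authors processed the scans in the Transcriptome Analysis Console by sst-rma and deposited log2 values per probe set. Of 28846 probe sets, 19572 had 1 gene symbol, which gave 19505 genes, and for the 55 genes with several probe sets the one with the highest mean was used. The detection filter that the labels name was replaced by the receptor gene background, which a gene had to exceed in at least 5 arrays of the comparison. Arrays have no read depth, so their number limits the precision. ank was compared with WT within each tissue on the deposited values, and tissues, and the ank effect between them, on values quantile-normalized over 20 arrays, by limma 3.58.1 in R 4.3.3 (lmFit, eBayes, Benjamini-Hochberg at 0.05 over all genes tested). The script was checked on data with known differences. NP and AF arrays of 1 number come from the same mouse, and same-mouse deviations correlated with a median of 0.19 (-0.12 to 0.63, 10 mice), against -0.04 for different mice. Genes named beside the members were up to 4 per list and comparison with the smallest p. The members, lists and rules were chosen with earlier results of these data known, and other genes named were chosen after their values were seen. The sequences are from RefSeq. Figures were drawn with matplotlib in Python 3.11.15.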

Additional observations from a re-analysis of the deposited data

How the results depend on the processing

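The covariate and spike-in set fits of the tissue comparisons, the antigenomic background and the fits without WT 33 and ank 31 were chosen after seeing the data. The results at an adjusted p of 0.05 between the genotypes stayed at 0 members under each alternative. Of the 3 SOX members tested, those past the study's thresholds numbered 1 instead of 0 in the NP within spike-in set B and in the fit with the control AUC, and 0 to 1 with 1 mouse left out. In the AF they numbered 0 instead of 1 within set A, 2 within set B and without WT 33 and ank 31, and 0 to 2 with 1 mouse left out. Without a filter 8 members were tested, and with the antigenomic background 6, or 7 for the difference between both effects. The counts below under these settings thus include factors below the receptor gene background. Between the tissues of WT mice 2 members instead of 1 had an adjusted p under 0.05 on the deposited values, without a filter (Mkx was 1 of these 2) and with the antigenomic background, and 0 to 1 with 1 mouse left out. The study's thresholds were met by 2 on the deposited and the centred values, without a filter and with the antigenomic background. In ank mice 1 instead of 0 was called on the deposited values, and the study's thresholds were met by 1 on the deposited values, with the mouse as a replicate block and with the spike-in set as a covariate, by 2 without a filter and with the antigenomic background, and by 0 to 1 with 1 mouse left out. For the difference between both effects 1 instead of 0 met them on the deposited and the centred values, without a filter and with the antigenomic background, and 0 to 1 with 1 mouse left out.

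Directions turned as follows, and the cause was not tested. Sox5 in the AF between genotypes was -0.055 within set B, -0.012 without WT 33 and ank 31 and -0.054 to 0.50 with 1 mouse left out, and Sox9 was -0.30 within set A. AF minus NP in WT was, for Sox5, -0.86 on the deposited values, -0.52 centred and -0.050 with the control AUC, and, for Sox9, -1.92 deposited, -1.58 centred, -0.0014 with the spike-in set, -0.31 without WT 33 and ank 31 and -0.31 to 0.16 with 1 mouse left out. In ank mice it was -0.11 for Sox5 on the deposited values, 0.20 for Sox6 and 1.28 for Sox9 with the control AUC, and -0.19 to 0.29 for Sox9 with 1 mouse left out. The difference between both effects was -0.081 for Sox5 without WT 33 and ank 31, and for Sox9 1.21 deposited, 1.31 centred, 0.25 without these mice and -0.25 to 0.28 with 1 mouse left out. For Sox6 it was 1.84 on the deposited values (unadjusted p 0.0374, adjusted p 0.900).

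With the mouse as a replicate block Sox6 kept its call between the tissues of WT mice (-1.96, adjusted p 0.0191), and it changed no other call at an adjusted p of 0.05. All genes called were then 400 higher and 873 lower in WT mice (476 and 967 without it) and 136 and 154 in ank mice (107 and 101). The scale changed these counts further, to 89 higher and 3654 lower on the deposited values and 136 and 2784 centred in WT mice, and to 66 and 2393 and 69 and 402 in ank mice. With the control AUC they were 211 and 427 in WT mice, without a filter 1171 and 1637, and with the antigenomic background 1109 and 1618, and in ank mice without a filter 566 and 588. Genes past the study's thresholds in the AF numbered 930 higher and 44 lower within set B, 25 and 26 within set A, and 889 and 35 without WT 33 and ank 31, against 145 and 6. Of the 8 factors, 5 were above background in too few arrays to enter the tests, Noto in 3 and the others in 0.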
